A study of Homo sapiens with 12 samples.

Results

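The aminoacyl-tRNA synthetase genes were followed through 12 total-RNA libraries of HCT116, an established human colon carcinoma cell line. The members were all gene rows whose symbols name a cytosolic synthetase (20 genes) or a mitochondrial synthetase, whose symbol ends in the digit of the mitochondrial series (16 genes), which made 36 of the 57134 genes in the count table. MATQ-seq, a method that amplifies total RNA from very small inputs, was used for every library. The untreated groups held 4 single cells and 2 mini-bulk libraries without rRNA depletion, and the DASHed groups held 4 single cells and 2 mini-bulk libraries treated with scDASH, which cuts sequences of ribosomal RNA (rRNA) out of cDNA with Cas9 and guide RNAs. The single cells were isolated by FACS. No genotype, drug or time differed between the groups. All libraries come from 1 cell line and the labels name no separate cultures, so the p-values below measure only the spread between these libraries, which may be technical.

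Aminoacyl-tRNA synthetases join each amino acid to its transfer RNA and so set the accuracy of the genetic code. They fall into a pair of structural classes, I and II, and most mitochondrial enzymes are encoded by nuclear genes of their own and imported. In the cytosol, a group of them sits with the scaffold proteins AIMP1, AIMP2 and EEF1E1 in the multisynthetase complex, while the others work free of it.

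Total estimated counts were 837614 to 1573651 in the 6 DASHed libraries and 5545355 to 6026584 in the 6 untreated libraries. rRNA genes took 20.5 to 24.4% of the counts of DASHed libraries and 45.2 to 52.9% of those of untreated libraries. The 6 markers of the HCT116 epithelium all had counts, with a summed level of 139.8 to 3712 CPM (counts scaled to the total of a library). Of 12 markers of other cell types 5 had a count, their summed level was 0.636 to 32.3 CPM, and CD3E, CD79A, LYZ, HBB, HBA1, VWF and ALB were at 0. Depth, rRNA share and depletion moved together in all libraries and cannot be told apart.

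The synthetase genes that moved differed in base composition, which can be read in their coding sequence. A coding stretch of 90 bases within 1 exon is shown for each of the 2 genes that rose in mini-bulk and for the 2 genes with the largest falls. The stretch was taken as the one whose GC share lies closest to that of the whole coding sequence (GENCODE v29, GRCh38). Each is written 5′ to 3′ on the coding strand, with every G and C in capitals.
FARSA, coding bases 408 to 497 of 1644, chr19:12930436-12930525, minus strand: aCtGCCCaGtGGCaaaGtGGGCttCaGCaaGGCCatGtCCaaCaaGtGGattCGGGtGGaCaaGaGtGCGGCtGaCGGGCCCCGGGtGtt
VARS, coding bases 277 to 366 of 3792, chr6:31794852-31794941, minus strand: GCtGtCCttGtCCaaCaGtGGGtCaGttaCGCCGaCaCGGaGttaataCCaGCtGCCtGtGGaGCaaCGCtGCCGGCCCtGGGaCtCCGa
FARSB, coding bases 136 to 225 of 1767, chr2:222642895-222642984, minus strand: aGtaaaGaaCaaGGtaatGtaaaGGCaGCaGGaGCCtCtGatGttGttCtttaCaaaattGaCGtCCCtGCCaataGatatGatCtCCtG
RARS, coding bases 217 to 306 of 1980, chr5:168492695-168492784, plus strand: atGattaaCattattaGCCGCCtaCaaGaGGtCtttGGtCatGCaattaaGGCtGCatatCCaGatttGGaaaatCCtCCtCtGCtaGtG
In the stretches of FARSA and VARS 55 of the 90 letters are G or C, against 37 of 90 in those of FARSB and RARS. FARSA and FARSB encode the catalytic and the partner subunit of a single enzyme, cytosolic phenylalanyl-tRNA synthetase, so the difference in composition runs between the genes of 1 protein complex.

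The mini-bulk comparison asked whether depletion leaves the relative levels of these mRNAs as they were. Relative to the other genes, 9 cytosolic synthetase genes fell after depletion, RARS, FARSB, DARS, EPRS, LARS, IARS, GARS, NARS and TARS, by 2.94- to 7.33-fold. FARSA and VARS rose, by 2.16-fold and 1.63-fold. No mitochondrial synthetase gene passed the test. Of the 36 genes 33 had enough counts to be tested, and the calls stand at an adjusted p under 0.05 in edgeR's quasi-likelihood test with TMM scaling (a scaling that assumes most genes do not change) and Benjamini-Hochberg adjustment over all 10083 genes tested. Over all tested genes 9.9% were called higher and 19.8% lower. Among the 33 synthetase genes 6.06% were called higher and 27.3% lower, and their median log2 fold change (DASHed over untreated) was -0.22, against 0.03 for all tested genes. The levels of the DASHed and untreated libraries did not overlap for 23 of the 33, with 9 higher and 14 lower after depletion, where 31.5% and 36.8% of all tested genes did the same.

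Both the count of rises and the count of falls depended on the scale. With scaling to total counts alone, which raises the median log2 fold change of all genes to 2.04, 20 synthetase genes were higher, none was lower, and 66.6% of all genes were higher and 1.37% lower. LARS, IARS, GARS, NARS and TARS then had positive log2 fold changes, while those of RARS, FARSB, DARS and EPRS stayed negative, and none of these 9 passed the test. All directions below are therefore relative to the other genes, under TMM. A mini-bulk level does not tell the number of cells holding a transcript from the RNA per cell. scDASH acts on cDNA, and the fold changes are given as differences between libraries, not between cells.

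**Figure D1:**
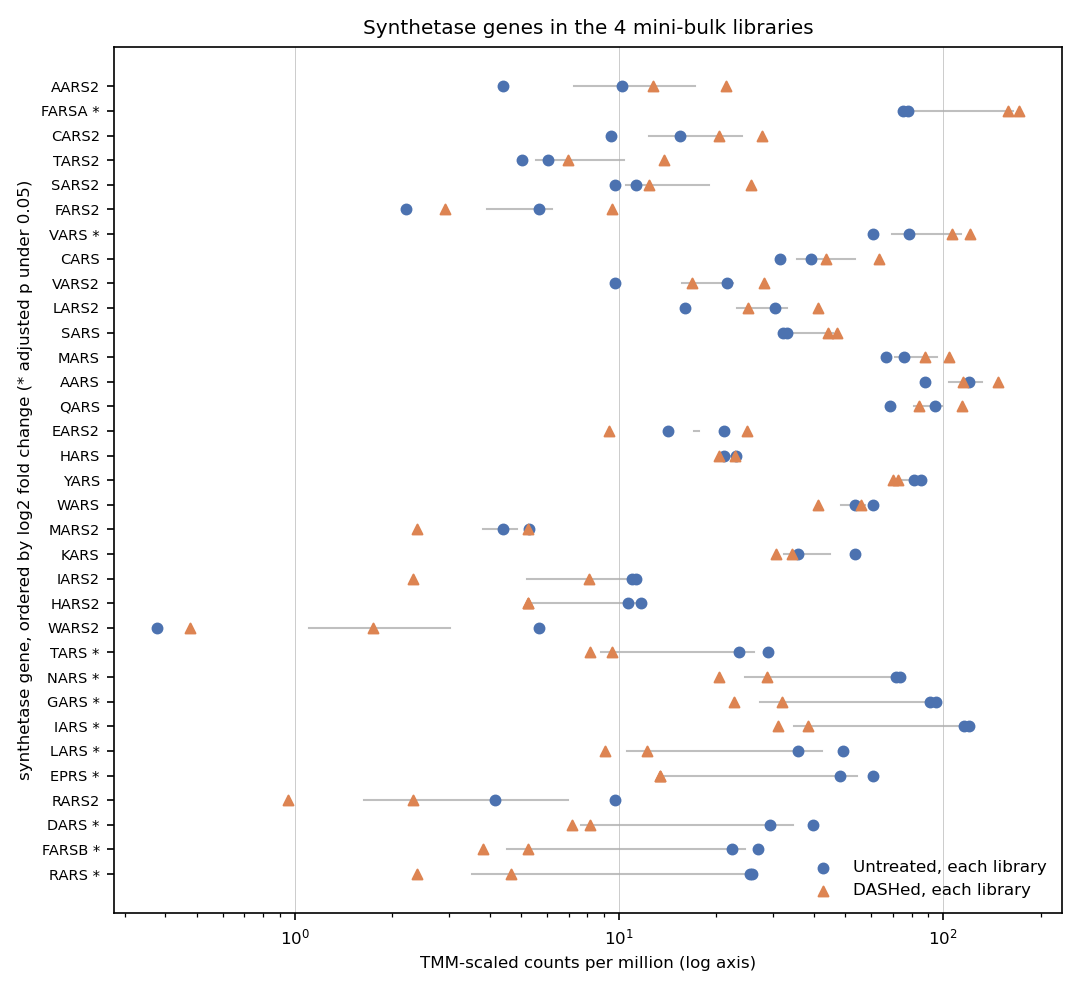
TMM-scaled CPM (log axis) of the 33 tested synthetase genes in each of the 2 untreated (circles) and 2 DASHed (triangles) mini-bulk libraries, ordered by log2 fold change, with a grey line between the group means and an asterisk at an edgeR adjusted p under 0.05. The 9 called falls gather at the bottom and FARSA and VARS stand among the genes with positive fold changes, with no overlap between their groups.

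Enzymes of the multisynthetase complex made up 5 of the 9 falls. Of the 8 synthetase genes of the complex (EPRS, LARS, IARS, MARS, QARS, RARS, KARS and DARS) 5 fell, where 19.8% of all tested genes did, none rose, and the median log2 fold change was -1.89. Of the 12 cytosolic genes outside it 4 fell and 2 rose, with a median of -0.13. The median transcript GC content was 42.9% for the genes of the complex and 49.9% for those outside it. With the GC correction described below neither set had a call, and the medians were -0.38 and -0.0085.

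RARS, the arginyl-tRNA synthetase gene (ENSG00000113643.8, chr5:168486445-168519299), had TMM-scaled levels of 25.3 and 25.8 CPM in the untreated libraries and 2.39 and 4.65 CPM in the DASHed libraries. The DASHed values rest on 5 and 8 counts. The groups lay far apart, and the log2 fold change was -2.87 (SE 0.45, edgeR adjusted p = 0.00249). DARS, which charges aspartate, stood at 39.7 and 29.2 CPM untreated and at 7.16 and 8.14 CPM DASHed (log2 fold change -2.17, SE 0.35, edgeR adjusted p = 0.00302). EPRS encodes a fused enzyme that charges both glutamate and proline and so belongs to both classes. Its levels were 48.0 and 60.6 CPM untreated, and both DASHed libraries lay at 13.4 CPM (log2 fold change -2.02, SE 0.27, edgeR adjusted p = 0.0013). LARS charges leucine and also takes part in leucine sensing for mTORC1. Its levels were 49.1 and 35.8 CPM untreated and 9.07 and 12.2 CPM DASHed (log2 fold change -2.0, SE 0.33, edgeR adjusted p = 0.00307). IARS, the isoleucyl enzyme, stood at 116 and 120 CPM untreated and at 31.01 and 38.4 CPM DASHed (log2 fold change -1.77, SE 0.20, edgeR adjusted p = 0.000556). In each of these 5 genes the higher DASHed library was below the lower untreated library.

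The other 3 enzymes of the complex did not pass the test. KARS, the lysyl enzyme of both the cytosol and the mitochondria, had a log2 fold change of -0.46 (SE 0.27, edgeR adjusted p = 0.219), with 53.7 and 35.8 CPM untreated against 30.5 and 34.3 CPM DASHed. QARS, the glutaminyl enzyme, had 0.29 (SE 0.23, edgeR adjusted p = 0.341). MARS, the methionyl enzyme that also charges the initiator tRNA, had 0.44 (SE 0.19, edgeR adjusted p = 0.11). The values of QARS and MARS were positive but not called, and with GC correction they were -0.24 and 0.11. MARS is uncertain, because 13.3% of its exonic bases are shared with neighbouring genes, among them DDIT3.

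Outside the complex, FARSB had 26.8 and 22.3 CPM in the untreated and 3.82 and 5.23 CPM in the DASHed libraries (log2 fold change -2.44, SE 0.42, edgeR adjusted p = 0.00373). The DASHed values rest on 8 and 9 counts. GARS, which charges glycine and serves both the cytosol and the mitochondria, stood at 91.1 and 94.9 CPM untreated and at 32.0 and 22.7 CPM DASHed (log2 fold change -1.76, SE 0.23, edgeR adjusted p = 0.00108). NARS, the asparaginyl enzyme, stood at 73.7 and 71.6 CPM untreated and at 28.6 and 20.3 CPM DASHed (log2 fold change -1.56, SE 0.24, edgeR adjusted p = 0.0023). TARS, the threonyl enzyme, stood at 23.4 and 28.9 CPM untreated and at 9.54 and 8.14 CPM DASHed (log2 fold change -1.56, SE 0.36, edgeR adjusted p = 0.0124). The libraries of the 2 groups did not overlap in any of these 4 genes.

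FARSA (ENSG00000179115.10, chr19:12922479-12934037) rose from 77.9 and 75.1 CPM in the untreated libraries to 158.4 and 171 CPM in the DASHed libraries (log2 fold change 1.11, SE 0.17, edgeR adjusted p = 0.00198). VARS, the valyl enzyme, whose gene lies in the major histocompatibility region (ENSG00000204394.12, chr6:31777518-31795953), rose from 60.8 and 78.6 CPM to 107 and 121 CPM (log2 fold change 0.70, SE 0.20, edgeR adjusted p = 0.0254). The VARS call was lost without untreated replicate 1 (0.40, edgeR adjusted p = 0.466) and without untreated replicate 2 (0.69, edgeR adjusted p = 0.145). The FARSA call and the 9 falls passed without any 1 of the 4 libraries. The count of rises was 1 without either untreated library, 3 without DASHed replicate 1 and 6 without DASHed replicate 2. Of all genes tested 2.64% were called higher without untreated replicate 1, 2.44% without untreated replicate 2, 11.5% without DASHed replicate 1 and 9.18% without DASHed replicate 2. The same 4 fits called 14.0, 14.5, 17.8 and 14.6% lower.

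The subunit genes FARSA and FARSB give a measure that no scaling of the libraries can move, their ratio within a library. The protein is a tetramer that holds both subunits in equal number. The ratio of FARSA counts to FARSB counts was 2.89 and 3.36 in the untreated mini-bulk libraries and 41.5 and 32.8 in the DASHed mini-bulk libraries. On the log2 scale the means were 1.64 ± 0.16 (SD, n = 2) and 5.21 ± 0.24 (SD, n = 2), a difference of 3.57, or 11.8-fold. Both genes were called in these same libraries, so the shift of the ratio restates those calls and is no separate support. An exact two-sided permutation test of 2 against 2 libraries cannot give less than p = 0.333. It gave that value here, and so cannot decide. Transcript GC was 61.8% for FARSA and 41.6% for FARSB. A library's dependence on GC can move the ratio, and with the GC correction described below the log2 fold changes were 0.29 and -0.85, without a call. In the untreated single cells 1 to 4 the ratio was 0.862, 13.6, 2.21 and 2.92. In the DASHed single cells 1 to 4 it was 4.9, 95.2, 23.4 and 14.5, from FARSB counts of only 20, 6, 24 and 38. Cells of the 2 groups overlapped, with untreated cell 2 above DASHed cell 1, but within each replicate number the DASHed cell had the higher ratio.

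**Figure D2:**
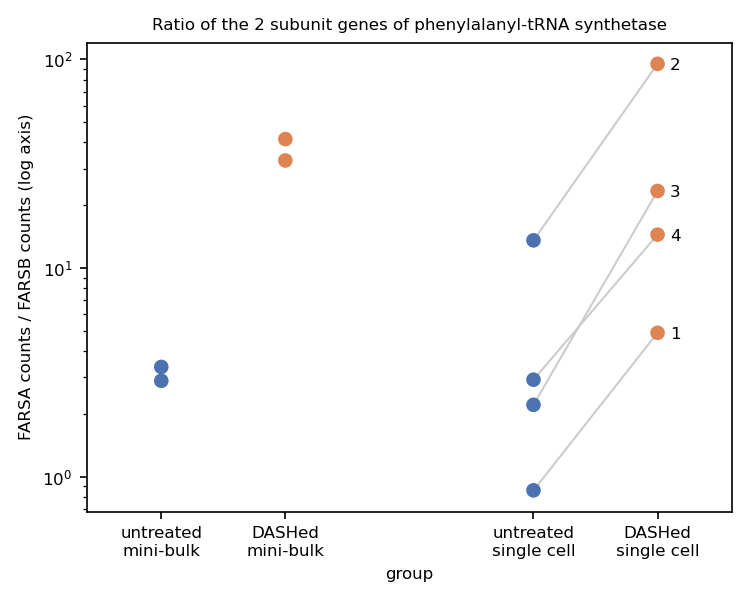
Ratio of FARSA counts to FARSB counts (log axis) in each library, as points for the 2 untreated and 2 DASHed mini-bulk libraries and for the 4 untreated and 4 DASHed single cells, with lines joining single cells of the same replicate number. The mini-bulk ratios lie at 2.89 and 3.36 untreated and at 32.8 and 41.5 DASHed, and each of the 4 lines runs upward.

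The remaining 6 cytosolic genes did not pass the test. Their log2 fold changes were -0.25 for WARS (tryptophanyl), -0.22 for YARS (tyrosyl), -0.03 for HARS (histidyl), 0.34 for AARS (alanyl), 0.49 for SARS (seryl) and 0.61 for CARS (cysteinyl), with edgeR adjusted p from 0.107 for CARS to 0.953 for HARS. AARS, with 120 and 88.3 CPM untreated and 148 and 116 CPM DASHed, overlapped between the groups. SARS did not overlap, at 32.1 and 33.0 CPM untreated against 47.2 and 44.2 CPM DASHed. YARS did not overlap either, and was lower after depletion, at 81.3 and 85.5 CPM against 70.1 and 72.7 CPM. HARS, WARS and YARS share at least 10% of their exonic bases or of their 31-base words with other genes and are uncertain. Split by class, 1 of 9 class I cytosolic genes rose and 3 fell, and 1 of 10 class II genes rose and 5 fell. Falls thus occurred in both, where 9.9% of all tested genes rose and 19.8% fell.

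Per kilobase of the longest coding transcript, the order of the untreated mean levels ran from FARSA (37.2 TMM CPM per kb), GARS (35.3) and AARS (30.03) down to PARS2 (0.295). EARS2 at 10.3 was the highest of the mitochondrial genes and was above 3 cytosolic genes, FARSB (7.29), LARS (8.91) and HARS (9.04). After depletion FARSA remained first at 80.2 TMM CPM per kb, AARS (37.9) and QARS (35.2) followed, and GARS stood at 10.4. FARSA thus moved away from the others, and its partner subunit FARSB went from 7.29 to 1.34.

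Of the 16 mitochondrial genes 13 were tested, and their log2 fold changes ran from -2.10 to 1.25 with a median of 0.53. The largest positive value was that of AARS2, the mitochondrial alanyl enzyme, whose variants are known in cardiomyopathy. Its levels were 10.2 and 4.40 CPM untreated and 21.5 and 12.8 CPM DASHed (log2 fold change 1.25, SE 0.51, edgeR adjusted p = 0.0927). CARS2 (cysteinyl) followed at 0.94 (SE 0.38, edgeR adjusted p = 0.0895), and neither gene overlapped between the groups. The most negative was RARS2 (arginyl), with 4.16 and 9.74 CPM untreated and 0.954 and 2.33 CPM DASHed (log2 fold change -2.10, SE 0.77, edgeR adjusted p = 0.0679). The DASHed values of RARS2 rest on 2 and 4 counts, and its untreated libraries on 11 and 31. WARS2 (-1.51), HARS2 (-1.09), IARS2 (-1.05), MARS2 (-0.36), EARS2 (-0.02), LARS2 (0.53), VARS2 (0.55), FARS2 (0.70), SARS2 (0.84) and TARS2 (0.92) had edgeR adjusted p between 0.114 and 0.976. HARS2, SARS2 and VARS2 share sequence with other genes and are uncertain. In SARS2 57.0% of the exonic bases are shared. Under other settings of the edgeR fit some mitochondrial genes were called. Without the filter AARS2 was higher and NARS2 lower, and without DASHed replicate 2 AARS2 and CARS2 were higher and NARS2 lower. Without DASHed replicate 1, SARS2 was higher and IARS2 lower. Scaling to total counts alone called 9 higher, on a scale where 66.6% of all genes were called higher. With the replicate number as a block 7 were called, AARS2, CARS2, LARS2 and SARS2 higher and HARS2, IARS2 and RARS2 lower. That fit called 23.4% of all genes higher and 30.2% lower.

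NARS2, PARS2 and YARS2 had too few counts to be tested. NARS2, the mitochondrial asparaginyl enzyme, had 6 and 23 counts in the untreated and 0 and 1 counts in the DASHed libraries, a ratio of TMM-scaled counts of 0.0527 with an exact 95% interval of 0.00129 to 0.318. Such intervals, here and below, cover counting error only. PARS2 (prolyl) had 2 and 2 counts untreated and 5 and 0 DASHed. YARS2 (tyrosyl) had 6 and 4 untreated and 12 and 1 DASHed. For PARS2 and YARS2 the DASHed libraries enclosed the untreated ones.

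The fold changes of the synthetase genes followed the GC content of their transcripts. The 2 rises had a median transcript GC of 60.5 and 61.8%, the 9 falls of 40.6 to 44.7%, and the 22 genes without a call spread over 41.1 to 61.9%. In the coding sequence alone the rises had 61.4 and 61.5% and the falls 41.1 to 47.5%. Across the 33 genes, which share the same 4 libraries, Spearman's rho between log2 fold change and transcript GC was 0.91 and Pearson's r 0.907. It was 0.962 among the 20 cytosolic and 0.786 among the 13 mitochondrial genes. The same relation held over all tested genes with a known GC content (rho 0.789, n = 10053), so it was not particular to synthetases. With the length of the longest coding transcript rho was -0.148. These correlations are across genes, which are not independent replicates.

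When each library was corrected for GC by a smooth curve, none of the 33 synthetase genes passed the edgeR test (3 had an unadjusted p under 0.05, and the lowest adjusted p was 0.153, for SARS). Over all genes 1.77% were then called higher and 2.25% lower. The log2 fold changes shrank to between -1.17 (RARS) and 0.67 (SARS), and 25 of 33 kept their sign. FARSB had -0.85 (edgeR adjusted p = 0.383) and FARSA 0.29 (edgeR adjusted p = 0.413), so the subunit genes stayed apart in value without a call. VARS changed sign, to -0.082. Across the 33 genes rho between the corrected log2 fold change and transcript GC was 0.426, so for these genes the relation with GC was lowered and not removed.

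**Figure D3:**
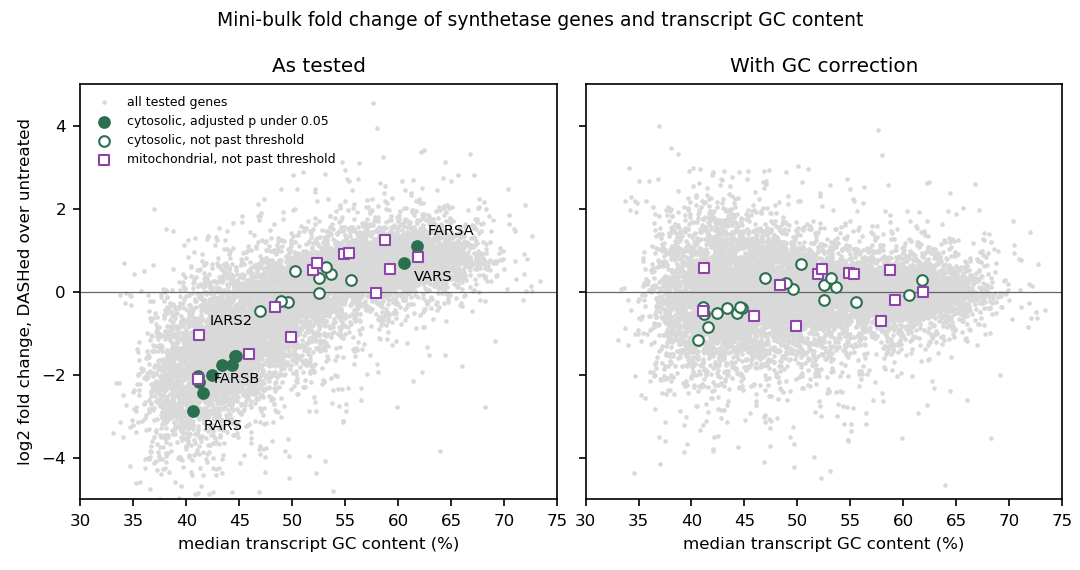
Mini-bulk log2 fold change (DASHed over untreated) against median transcript GC content (%), before (left) and after (right) the GC correction of each library, with all tested genes in grey (those beyond the axis limits are not drawn), cytosolic and mitochondrial synthetase genes as coloured symbols, and filled symbols at an edgeR adjusted p under 0.05. On the left the synthetase genes climb from the falls at 40.6 to 44.7% GC to the rises at 60.5 and 61.8%, and on the right they lie between -1.17 and 0.67 with no filled symbol.

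As a family, the synthetase genes took a larger share of all counts after depletion. The share in mini-bulk was 0.0645 ± 0.0069% (SD, n = 2) untreated and 0.236 ± 0.0072% (SD, n = 2) DASHed, 3.65 times as much. For the cytosolic genes the ratio was 3.502 and for the mitochondrial genes 4.92. In single cells the share ran from 0.0479 to 0.103% untreated and from 0.138 to 0.290% DASHed, without overlap, and the ratio of means was 2.71. With rRNA genes taken out of the total the ratios were 2.53 in mini-bulk and 1.67 in single cells. The 4 lincRNA genes that lie within 18S rRNA sequence (FP671120.3, FP671120.4, FP236383.2 and FP236383.3) took 36.9 and 37.3% of the untreated and 16.2 and 18.6% of the DASHed mini-bulk counts. With these also taken out, a choice made after seeing the data, the ratios were 0.979 and 0.906. The gain of the family as a whole was thus present where rRNA and rRNA-like counts were part of the total. It was not seen where both were left out. On that last total the mini-bulk ratio was 0.9385 for the cytosolic and 1.318 for the mitochondrial genes, with overlapping libraries in both. In single cells these ratios were 0.894 and 0.982.

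More synthetase genes were seen at equal depth in depleted mini-bulk libraries. After thinning to 837450 counts, 18 and 18 genes had at least 10 counts in the untreated and 28 and 25 in the DASHed mini-bulk libraries. In single cells thinned to 1018815 counts the numbers for cells 1 to 4 were 16, 23, 22 and 22 untreated and 21, 23, 24 and 25 DASHed. At the depth as deposited the order turned, since the untreated libraries were deeper. The mini-bulk numbers were then 32 and 33 untreated and 29 and 25 DASHed. With rRNA left out before thinning, mini-bulk kept 23 and 22 against 28 and 25, and single cells averaged fewer after depletion, at a ratio of 0.959.

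Single cells differed from each other far more than mini-bulk libraries did. The labels name no culture for the cells, so each group of 4 cells counts as 1 sample and no test was made between the groups. MARS had 2.08, 155, 49.8 and 40.1 CPM in untreated cells 1 to 4, and 6.79, 584, 200 and 143 CPM in DASHed cells 1 to 4. Cell 1 was lowest and cell 2 highest in both groups. AARS was likewise low in cell 1, at 2.78 CPM untreated and 4.52 CPM DASHed, where the other 6 cells had 37.6 to 248 CPM. GARS was high in cell 4, at 130 CPM untreated and 140 CPM DASHed, and stood at 34.7 CPM or less in the other 6. CARS had 1.08 CPM in untreated cell 2 and no count in DASHed cell 2, where the floor of 3 counts is 2.94 CPM, and 9.79 to 157 CPM elsewhere. WARS2 had counts in cell 4 alone, at 5.82 CPM untreated and 22.9 CPM DASHed.

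The cell that was highest for a gene therefore carried the same number in both groups for 26 of the 36 genes. Across the 36 genes the correlation of log2 levels between an untreated and a DASHed cell of the same number was 0.896 to 0.93, and between cells of different numbers 0.219 to 0.613. The same split held across 8747 genes with at least 100 counts (0.894 to 0.922 against 0.336 to 0.456), so it was not particular to synthetases. The labels do not say whether a number marks 1 cell whose library was divided. At the depth as deposited, which was greater untreated, a value of 0 occurred in 12 of 144 gene-by-cell values untreated and in 21 of 144 DASHed. Of these, 11 fell on both cells of a number. Of the 12 genes with a 0 in some cell, CARS was cytosolic and the other 11 were mitochondrial. After thinning to 1018815 counts the groups were alike, with 30, 32, 31 and 31 genes having a count in untreated cells 1 to 4 and 29, 32, 30 and 32 in DASHed cells 1 to 4.

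**Figure D4:**
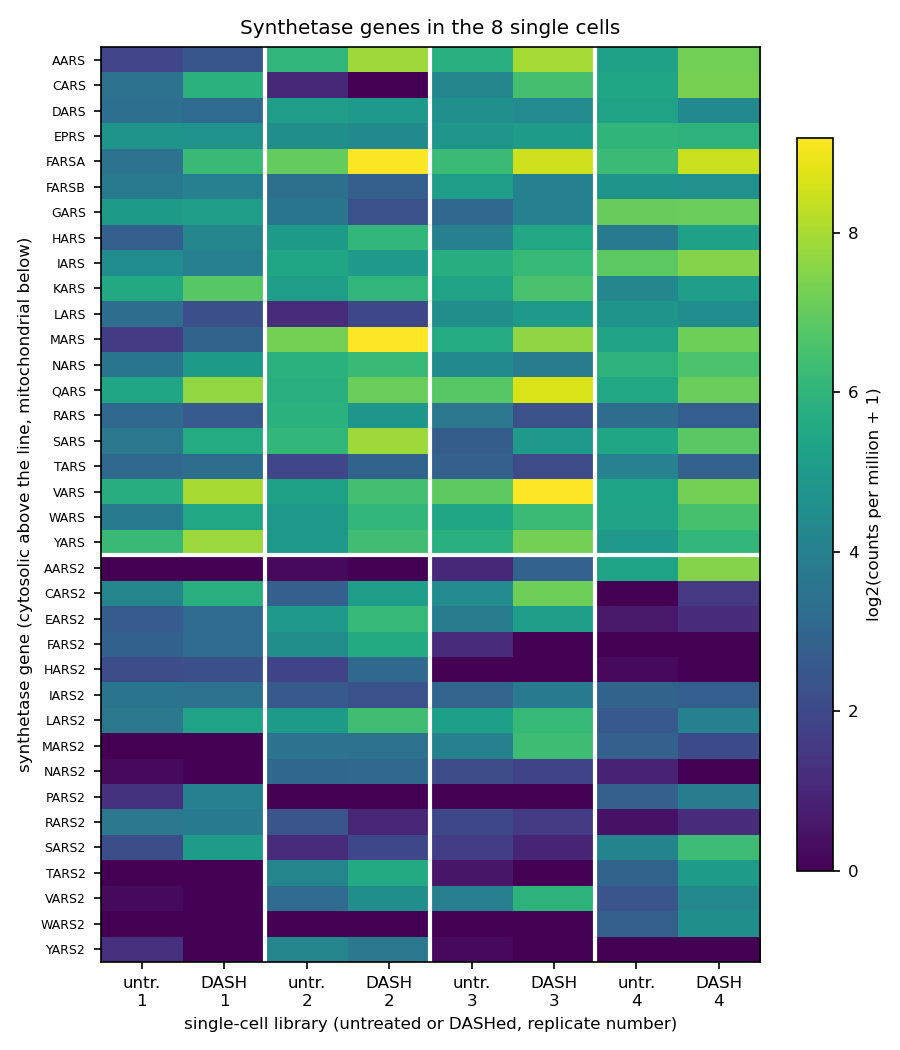
Levels of the 36 synthetase genes, as log2(CPM + 1), in the 8 single cells, with untreated and DASHed cells of the same replicate number side by side, cytosolic genes above the white line and mitochondrial genes below it. Neighbouring columns of a number resemble each other, and values of 0 (dark) lie among the mitochondrial genes except for CARS in DASHed cell 2.

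For the 4 DASHed against the 4 untreated cells, counts were summed over the cells of a group and scaled to their summed totals, a pseudocount of 1 CPM was added, and the log2 ratio was taken relative to the median of 13469 genes with at least 20 counts. That median gene was 2.20-fold higher in the DASHed cells. On that scale 9 synthetase genes were at least 2-fold lower and 6 at least 2-fold higher, which is 25% and 16.7% of the 36, where 23.7% and 12.6% of all genes were. The median of the 36 was 0.04. The lower genes were RARS, YARS2, DARS, FARSB, TARS, NARS2, RARS2, EPRS and LARS, and the higher genes were FARSA, VARS, CARS, SARS2, AARS2 and CARS2. Some of the falls leaned on 1 cell. Without untreated cell 2 the log2 ratios of YARS2, NARS2 and RARS were -0.11, -0.82 and -1.21, and without DASHed cell 2 they were -3.55, -2.10 and -2.94. RARS2 had -0.55 without untreated cell 1 and -2.28 without DASHed cell 1. The numbers of lower and higher genes depended on how the cells were combined. As the mean over same-numbered pairs, 2 of the 36 were at least 2-fold lower and 7 higher, against 11.5% and 17.8% of all genes. As the mean of CPM over cells, which gives each cell equal weight and was added after seeing the data, 11 were lower and 2, FARSA and CARS2, higher, against 23.6% and 12.4%. Where at least 100 counts were required, 12 of 32 were lower and 0 higher, against 23.3% and 1.92%. Against the genes nearest in expression 13 were lower and 0 higher, next to 16.5% and 5.25% of all genes. Without untreated cell 1, 8 were lower and 1 higher, next to 23.1% and 14.9%.

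RARS had the lowest ratio in single cells, as it did among the 33 genes tested in mini-bulk. Its levels in cells 1 to 4 were 7.88, 57.3, 11.5 and 8.65 CPM untreated and 5.28, 27.5, 3.90 and 5.72 CPM DASHed. Although the groups overlapped, each DASHed cell was below the untreated cell of its number, and the log2 ratio relative to all genes was -2.25. FARSB had 12.1, 9.43, 34.6 and 26.3 CPM untreated and 15.1, 5.89, 15.6 and 24.1 CPM DASHed, a log2 ratio of -1.49. DARS had -1.56, TARS -1.48, EPRS -1.08 and LARS -1.06. From summed counts and without the pseudocount, the ratio relative to all genes was 0.20 for RARS (exact 95% interval 0.15 to 0.27), 0.35 for FARSB (0.28 to 0.44) and 0.34 for DARS (0.27 to 0.41).

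FARSA stood at 10.4, 128, 76.6 and 76.8 CPM in untreated cells 1 to 4 and at 73.9, 560, 366 and 350 CPM in DASHed cells 1 to 4, a log2 ratio relative to all genes of 1.02. VARS stood at 51.4, 37.0, 120 and 39.3 CPM untreated and at 253, 85.4, 583 and 154 CPM DASHed (1.03). In CPM, every DASHed cell was above the untreated cell of its number in both genes, while relative to the median gene of each pair FARSA was higher in 4 of 4 pairs and VARS in 3 of 4. The ratios of CARS2 (1.20), AARS2 (1.19), SARS2 (1.08) and CARS (1.07) were as large. AARS2 rests on cell 4, with 38.8 CPM untreated and 180 CPM DASHed, and its log2 ratio was -2.58 without DASHed cell 4. SARS2 likewise had -0.064 without that cell. Of 20 genes with at least 20 counts in each of the 4 same-numbered pairs, 10 were lower than the median gene in every pair and 3 (FARSA, QARS and SARS) were higher in every pair. Of the 3556 genes measured that way 30.7% were lower and 36.8% higher in every pair.

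Both inputs placed the genes in a similar order. Of the 9 mini-bulk falls 6 were also at least 2-fold lower in single cells, and GARS (-0.86), IARS (-0.66) and NARS (-0.63) were not. As the mean over same-numbered pairs 1 of the 9, RARS (-1.43), was at least 2-fold lower, although all 9 had negative values, up to -0.10 for NARS. As the mean of CPM over cells 7 of the 9 were at least 2-fold lower. The sign was the same in both inputs for 27 of 33 genes. Across these 33 genes Spearman's rho between the mini-bulk and the single-cell log2 ratios was 0.866, next to 0.797 over 9447 genes present in both. The single-cell ratio also followed transcript GC, with rho of 0.83 over the 36 genes and 0.697 over all genes. WARS2 differed most plainly in direction, at -1.51 in mini-bulk (edgeR adjusted p = 0.334) and 0.50 in single cells, both from few counts.

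**Figure D5:**
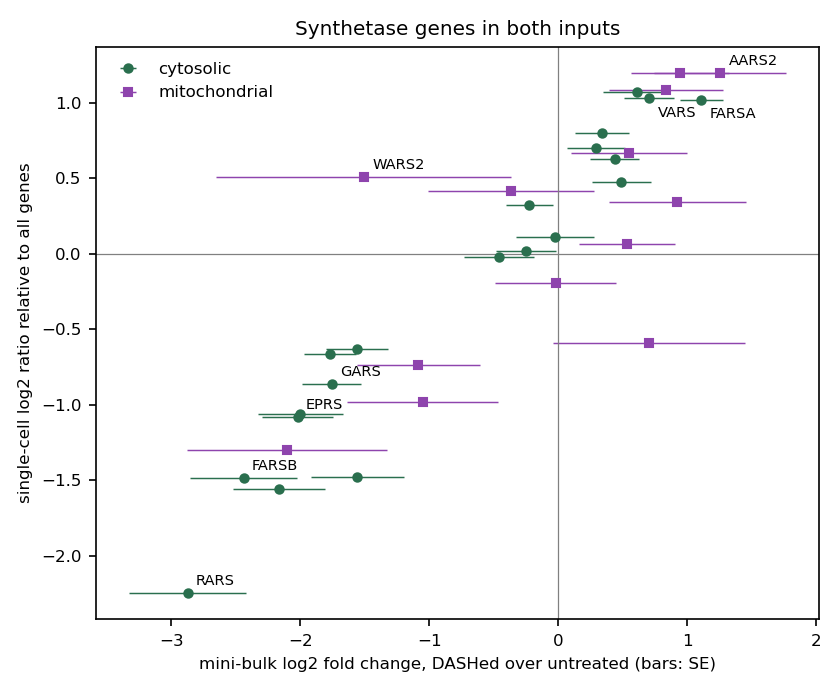
Single-cell log2 ratio relative to all genes (vertical axis) against mini-bulk log2 fold change with its SE (horizontal axis and bars) for the 33 synthetase genes measured in both, cytosolic and mitochondrial genes in different symbols. RARS stands at the lower left (-2.87 and -2.25), FARSA at the upper right (1.11 and 1.02), and 27 of the 33 genes have the same sign in both.

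Genes that work beside the synthetases were taken from lists of scaffolds, transamidation, proofreading and export, the amino acid response and amino acid transport, 32 genes in all. Of the 26 tested, 5 rose and 7 fell in mini-bulk (edgeR adjusted p under 0.05), or 19.2% and 26.9%. Over all tested genes 9.9% rose and 19.8% fell. After GC correction 1 rose and none fell, where 1.77% and 2.25% of all tested genes did. Among the 3 scaffold genes EEF1E1 fell, with 48 and 30 counts untreated against 3 and 0 DASHed, a ratio of TMM-scaled counts of 0.0587 (exact 95% interval 0.0119 to 0.178; edgeR adjusted p = 0.00904). EEF1E1 shares 18.7% of its exonic bases with other genes and is uncertain. AIMP1 (-1.93, edgeR adjusted p = 0.101) and AIMP2 (0.41, edgeR adjusted p = 0.522) did not pass. QRSL1, a subunit of the mitochondrial transamidase that makes glutaminyl-tRNA, fell, with 18 and 22 counts untreated against 3 and 0 DASHed (edgeR adjusted p = 0.0315), and its call was lost without DASHed replicate 2 (edgeR adjusted p = 0.0991). XPOT, which exports tRNA from the nucleus, fell, with a log2 fold change of -2.20 (SE 0.67, edgeR adjusted p = 0.0359), a call that neither DESeq2 (adjusted p = 0.0758) nor edgeR without either DASHed library made (adjusted p = 0.0656 and 0.0581). SEPSECS, which completes selenocysteinyl-tRNA and was the only tested gene of its list, had 0.13 (SE 0.67, edgeR adjusted p = 0.896).

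The amino acid response, in which the kinase GCN2 (EIF2AK4) senses uncharged tRNA and raises ATF4 targets, showed 2 rises and 2 falls among 11 tested genes. These are 18.2% each way, where 9.9% of all tested genes rose and 19.8% fell. GCN1, an activator of that kinase, rose from 249 and 240 CPM to 489 and 441 CPM (log2 fold change 0.93, SE 0.14, edgeR adjusted p = 0.00236), a call lost without untreated replicate 2 (edgeR adjusted p = 0.0729). SHMT2, a mitochondrial serine enzyme, rose (1.09, SE 0.16, edgeR adjusted p = 0.00194). ASNS, asparagine synthetase, fell by 2.04 (SE 0.37, edgeR adjusted p = 0.00492), and it is uncertain because 44.6% of its exonic bases are shared. EIF2AK4 fell by 0.94 (SE 0.28, edgeR adjusted p = 0.0356) and lost its call without any 1 of DASHed replicate 1, DASHed replicate 2 or untreated replicate 1 (edgeR adjusted p = 0.0578, 0.158 and 0.187), without the filter (edgeR adjusted p = 0.051) and in DESeq2 (adjusted p = 0.128). ATF4 itself had 0.18 (SE 0.21, edgeR adjusted p = 0.531). The 4 called genes followed the same division by composition as the synthetases, with 58.0 and 58.8% transcript GC in GCN1 and SHMT2 and 43.9 and 44.2% in ASNS and EIF2AK4.

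Among 6 amino acid transporters 3 rose and 2 fell, where 9.9% of all tested genes rose and 19.8% fell. SLC7A5 and SLC3A2, the partner chains of a large neutral amino acid exchanger, rose by log2 fold changes of 0.80 (SE 0.16, edgeR adjusted p = 0.00705) and 1.06 (SE 0.26, edgeR adjusted p = 0.017). SLC1A5, a glutamine carrier, rose by 0.81 (SE 0.16, edgeR adjusted p = 0.00618), and 23.8% of its exonic bases are shared. The call of SLC3A2 was lost without untreated replicate 2 (edgeR adjusted p = 0.253), and that of SLC1A5 without either untreated library (edgeR adjusted p = 0.0764 and 0.216). SLC7A11, the cystine carrier, fell by 2.32 (SE 0.43, edgeR adjusted p = 0.00494), and SLC38A2 fell by 1.17 (SE 0.16, edgeR adjusted p = 0.00154). After GC correction SLC7A5 (0.0071), SLC3A2 (0.56), SLC1A5 (0.12) and SLC7A11 (-0.42) were not called. SLC38A2 had 38.4% transcript GC. After GC correction its log2 fold change was 0.78 (edgeR adjusted p = 0.0359), the 1 call among these genes on that scale and in the opposite direction.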

How the data were processed

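Total RNA of HCT116 cells was sequenced by MATQ-seq as single cells sorted by FACS and as mini-bulk, per the labels' protocols. The deposited table holds the authors' estimated counts for each gene, unscaled, and 31.1 to 55.9% of those above 0 are not whole numbers. Per the submitters' processing notes, kallisto 0.46.2 was used. How strand was handled, how transcripts were summed, and which build and annotation served are not given in the sources. Ambiguous reads are shared among transcripts by kallisto, so values of genes with shared sequence depend on each other.

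Estimated counts were rounded. Of 57134 genes 57079 matched names of GENCODE v29 (GRCh38), all 36 synthetases among them. This annotation gave coordinates, coding sequence and the median GC content of each gene's transcripts. Genes sharing at least 10% of exonic bases or of 31-base words with others are called uncertain. rRNA was a set of 547 genes, 87 of them with counts. Mini-bulk genes were tested with edgeR 4.0.16 (limma 3.58.1, R 4.3.3), TMM factors (1.96 and 2.09 DASHed, 0.442 and 0.553 untreated), filterByExpr and Benjamini-Hochberg adjustment over all genes at 0.05. Single-cell ratios used counts summed over cells, scaled to the summed totals, with a pseudocount of 1 CPM, which weights cells by depth, and carried no test. Exact intervals are at 95%, and the floor of 3 counts is 0.498 to 3.58 CPM. The edgeR steps were also run on simulated counts without a dependence on GC, which differs from these data, so that run does not bear on the GC relation. Alternatives were other scalings, DESeq2 1.42.0, no filter, a replicate block, a GC correction (natural spline, 5 degrees of freedom), other pseudocounts and leaving out each library. Tables were made with Python 3.11.15, numpy 2.4.6, pandas 2.3.3 and scipy 1.17.1.

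Same-numbered single cells deviated together from their group means (correlation 0.918 to 0.927 over 8747 genes, against -0.39 to -0.22 for different numbers), so the numbers were taken to pair them, from the data alone. The members and gene lists were chosen with earlier results of these data known. The rule for named genes gave all 36 synthetases, in full where called in mini-bulk (at most 8 each way, to which TARS, the ninth fall, was added after its values were seen), in single cells at most 5 past the fold each way, and from each related list at most 2 called genes each way, or 1 if none was called. Further genes (single-cell values of EPRS, LARS and FARSA, and AIMP1, AIMP2, ATF4 and SLC7A5) were added after their values were seen.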

Additional observations from a re-analysis of the deposited data

Results flagged for a closer look

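In 11 gene-by-group sets of 4 single cells 1 cell stood apart from the other 3 by a gap that Dixon's criterion marks. Its chance rate of about 1 in 20 sets holds for normally distributed values. The CPM of single cells are skewed, so that rate does not apply here and the marks cannot be compared with chance. Whether synthetase genes were marked more often than other genes was not tested. AARS2, RARS and WARS2 were marked for the same cell number in both groups. AARS2 stood at 38.8 CPM in untreated cell 4 and 180.4 CPM in DASHed cell 4, with the nearest cells at 1.07 and 6.504 CPM. RARS stood at 57.3 CPM in untreated cell 2 and 27.5 CPM in DASHed cell 2, with the nearest at 11.5 and 5.72 CPM. WARS2 stood at 5.82 and 22.9 CPM in the cells of number 4, with no count in the other 6 cells. In 1 group alone, EPRS was marked in untreated cell 4 (63.2 CPM, nearest 27.6 CPM) and SARS2 in untreated cell 4 (16.8 CPM, nearest 3.65 CPM). MARS2 was marked in DASHed cell 3 (80.7 CPM, nearest 9.82 CPM) and RARS2 in DASHed cell 1 (12.8 CPM, nearest 1.95 CPM). YARS2 was marked in untreated cell 2 (17.5 CPM, nearest 1.40 CPM). Its DASHed cell 2 also stood apart, at 11.8 CPM from 12 counts with no count in the other DASHed cells. That set is not among the 11.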

How the results depend on the processing

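Reversed means here that a sign changed and that the gene was called on at least 1 of the 2 scales. The 9 falls and both rises kept their call under RLE factors, without rRNA genes, without the filter and in DESeq2. Scaling to total counts alone gave 20 higher and 0 lower genes, a median log2 fold change of 1.79, and reversed EARS2 (2.003), GARS (0.25), HARS (1.98), IARS (0.25), KARS (1.59), LARS (0.044), MARS2 (1.65), NARS (0.46), TARS (0.44), WARS (1.77), YARS (1.79), EIF2AK4 (1.09) and SLC38A2 (0.86). In all 14 of the 33 synthetase genes changed sign there and 8 with GC correction. With GC correction no gene was called in either direction (0 higher, 0 lower), rho with GC was 0.43, and VARS (-0.082), EIF2AK4 (0.31) and SLC38A2 (0.78) reversed. Same-numbered mini-bulk libraries are only 2 pairs (correlation of deviations 0.453), and their numbers were not taken as a pairing. With the replicate block 11 genes were higher and 13 lower (23.4 and 30.2% of all genes), of which 7 were mitochondrial (AARS2, CARS2, LARS2 and SARS2 higher, HARS2, IARS2 and RARS2 lower). With the replicate block and GC correction 1 was higher (SARS) and 1 lower (GARS), against 7.68 and 8.37% of all genes, rho was 0.45, and VARS (-0.078), EIF2AK4 (0.30) and SLC38A2 (0.77) reversed. Leaving out each mini-bulk library, with the lone library assumed to vary like the others, gave 1 to 6 higher and 9 to 10 lower genes, medians of -0.28 to -0.039 and rho of 0.823 to 0.873.

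In single cells a pseudocount of 0.1 CPM gave 3 higher genes (11.4% of all genes) and a median log2 ratio of -0.15. One of 5 CPM gave 3 lower genes (6.69% of all) and a median of 0.27. A minimum of 100 counts gave 0 higher genes (1.92% of all) and a median of -0.36. The baseline of genes nearest in expression gave 0 higher genes (5.25% of all) and a median of -0.50. The pairing of same-numbered cells (replicate block) gave 2 lower genes (11.5% of all) and a median of 0.23. The mean of CPM over cells, added after seeing the data, gave 2 higher genes (12.4% of all). Leaving out each cell gave 1 to 9 higher and 7 to 12 lower genes (14.8 to 23.1% and 23.1 to 27.2% of all genes), and AARS2 ran from -2.58 to 4.07 and SARS2 from -0.064 to 2.07, both reversed without DASHed cell 4. The ratio of shares was 2.53 and 1.67 without rRNA genes and 0.979 and 0.906 also without the 18S lincRNA genes (mini-bulk, then single cells), and 3.398 to 3.95 and 2.37 to 3.08 when a library was left out. The ratio of detected genes, 1.47 in mini-bulk and 1.12 in single cells, was 0.831 and 0.845 without thinning and 1.18 and 0.959 without rRNA. The causes were not tested, apart from depth, which differs by construction without thinning. Without the 5 genes for which sharing of exonic bases reached 10%, an alternative chosen after seeing the data, 2 of 28 tested genes were higher and 9 lower. DASHed mini-bulk libraries held 0 to 9 counts of NARS2, RARS2, FARSB or RARS, which limits these fold changes.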
